A study of Mus musculus with 16 samples.

Results

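Gfpt1, Gnpnat1, Pgm3 and Uap1 encode the enzymes of the hexosamine biosynthetic pathway, and Ogt encodes the transferase that spends the pathway's product on proteins. These 5 genes were taken by symbol from a table of read counts, where 5 of 5 were found among 15871 entries, and all 5 passed the filter on low counts that left 13527 entries for testing. The RNA came from peritoneal macrophages that had been elicited with 6% soluble starch in wild-type C57BL/6 mice aged 8 weeks, and was sequenced in 16 libraries, 4 per group. L_C was low glucose without oxidised low-density lipoprotein (ox-LDL) and carried 27.5 mM mannitol as the osmotic control. L_O received ox-LDL in low glucose, H_C received 33 mmol/L glucose, and H_O received both, with ox-LDL labelled as 50 mg/ml and every treatment lasting 48 h. The labels give no concentration for the low-glucose medium and name mannitol for L_C only. They do not say whether the replicates came from separate mice or cultures. The p-values below therefore measure the spread between these libraries, which may be technical. ox-LDL loads macrophages with lipid and turns them into foam cells, and the design set this loading in low glucose against the same loading in high glucose.

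The hexosamine pathway branches from glycolysis at fructose 6-phosphate. GFPT1 joins that sugar to an amide group from glutamine and is regarded as the rate-limiting enzyme, GNPNAT1 adds an acetyl group, PGM3 moves the phosphate, and UAP1 joins the sugar to UTP to give UDP-GlcNAc. That nucleotide sugar feeds protein N-glycosylation in the endoplasmic reticulum and Golgi, and OGT uses it to attach O-GlcNAc to serines and threonines of nuclear and cytoplasmic proteins, from which the hydrolase OGA removes it. In macrophages as in other cells the pathway is studied as a link from glucose and glutamine supply to protein modification, and Gfpt1 is a known target of the unfolded protein response factor XBP1.

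Promoter sequences of 4 of the 5 genes were found in the RefSeq table for GRCm38.p6, each running from 250 bases before to 50 bases after an annotated start, 5′ to 3′ on the gene's strand. Those of Gfpt1, Uap1 and Ogt are shown because the levels of Gfpt1 and Uap1 moved alike over the libraries while those of Ogt ran opposite to Gfpt1. Capitals mark TGACGT or its reverse complement, and CCACG or its reverse complement CGTGG.
Gfpt1, chr6:87042596-87042895, plus strand: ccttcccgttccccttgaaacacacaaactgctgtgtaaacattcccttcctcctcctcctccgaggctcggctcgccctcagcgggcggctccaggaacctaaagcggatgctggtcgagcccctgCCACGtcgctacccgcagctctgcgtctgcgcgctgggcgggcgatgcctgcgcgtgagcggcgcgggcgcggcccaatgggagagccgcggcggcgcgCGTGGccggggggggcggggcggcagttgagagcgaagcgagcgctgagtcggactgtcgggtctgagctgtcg
Uap1, chr1:170174915-170175214, minus strand: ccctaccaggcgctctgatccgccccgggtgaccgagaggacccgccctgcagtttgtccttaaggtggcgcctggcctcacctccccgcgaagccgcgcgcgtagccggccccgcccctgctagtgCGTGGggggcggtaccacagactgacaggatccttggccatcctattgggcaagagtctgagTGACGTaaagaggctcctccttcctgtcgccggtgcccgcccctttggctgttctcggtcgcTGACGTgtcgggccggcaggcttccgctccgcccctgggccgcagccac
Ogt, chrX:101639801-101640100, plus strand, the first of 2 listed starts: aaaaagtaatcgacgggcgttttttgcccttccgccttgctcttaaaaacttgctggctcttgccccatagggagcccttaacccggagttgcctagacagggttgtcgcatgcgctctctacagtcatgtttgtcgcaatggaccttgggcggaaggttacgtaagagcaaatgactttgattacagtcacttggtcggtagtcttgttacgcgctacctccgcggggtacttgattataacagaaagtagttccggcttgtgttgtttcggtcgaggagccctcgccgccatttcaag

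Both strands were searched for 5 motifs. These were TGACGTGG (the unfolded protein response element, in 0.682% of the 32544 distinct promoter sequences of this length in the table), the ER stress response element (0.12%), TGATGNAAT (the core of the amino acid response element, 0.956%), TGACNNNGC (the core of the antioxidant response element, 12.4%) and the E-box CACGTG (7.17%). None of the 5 occurred in the windows of Gfpt1, Pgm3, Uap1 or Ogt. A pair of shorter pieces was added after the promoters had been read, so their matches are a description only: TGACGT, found in 7.55% of promoters, and CCACG, found in 33%. The Uap1 window held TGACGT at -61 and 2 bases from the start and CGTGG at -123. In the Gfpt1 window CCACG stood at -123 and CGTGG at -24, and the Pgm3 window held CCACG at 24. TGACGTGG contains TGACGT and the complement of CCACG, the ER stress response element ends in CCACG, and the E-box can overlap CCACG. Neither Ogt window held any of the 7. The windows of Gfpt1 and Uap1 had a GC content of 70.3% and 69%, that of Ogt had 51%, and the median promoter had 53%.

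Library totals lay between 32596640 and 41712885 counts. The cells carried their labelled identity: all 10 macrophage markers checked (Adgre1, Csf1r and Cd68 among them) were in the table and summed to between 18139 and 21517 CPM, read counts scaled to library size, in the 16 libraries. Most of this sum came from Lyz2, at 13256 to 16807 CPM. Adgre1 had 359 to 553 CPM, Csf1r 564 to 900 and Cd68 1498 to 3052. The summed B cell markers reached at most 2.44 CPM, T and NK cell markers 12.2, dendritic cell markers 4.53, eosinophil markers 23.6, neutrophil markers 49.8, and mesothelial and fibroblast markers 180 CPM, the last in H_C replicate 3. L_C replicate 4 stood apart from the other L_C libraries, with 3.71% of its counts from mitochondrial genes against 1.48% to 1.95% and 1.39% from ribosomal protein genes against 1.77% to 1.81%. Where leaving it out changed a call of the 5 genes or a count of a gene list (marker lists apart) printed below, this is said beside it.

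The genes stood far apart in level. Per kilobase of annotated exon, Ogt was the most abundant of the 5, with group means between 25.6 and 30.4 CPM per kb. Mgea5, the older symbol under which the table lists the hydrolase gene Oga, followed with 12.03 to 13.2 CPM per kb. Uap1 had group means of 5.33 to 6.48 CPM per kb and Gfpt1 of 4.08 to 5.63, and these neighbours were not separated by their SDs in L_C (5.99 ± 0.349 for Uap1 against 5.46 ± 0.191 for Gfpt1, SD, n = 4) but were in H_C (5.33 ± 0.0616 against 4.08 ± 0.224). Pgm3 followed with 1.85 to 2.21 CPM per kb, and Gnpnat1, which encodes the acetyltransferase, was the lowest with 0.353 to 0.535. Among isoenzymes, Uap1l1, a paralogue of Uap1, had 65.0 to 73.6 CPM per kb and exceeded Uap1 in all groups, whereas Gfpt2, the second form of the entry enzyme, had 0.191 to 0.444 and was below Gfpt1 in all groups.

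The lengths come from GENCODE M21 on mm10, which may not be the annotation the reads were counted on. On that annotation Gfpt1 lies on the plus strand of chromosome 6 from 87042846 to 87092197, Gnpnat1 on the minus strand of chromosome 14 from 45376334 to 45404913, and Pgm3 on the minus strand of chromosome 9 from 86554377 to 86571842. Uap1 lies on the minus strand of chromosome 1 from 170141938 to 170174957, and Ogt on the plus strand of chromosome X from 101640060 to 101684351. Gfpt1, Uap1 and Ogt share little sequence with other genes: 0.0494%, 0.585% and 0% of the 50-base stretches of their transcripts also occur in other genes' transcripts. The counts of Gnpnat1 and Pgm3 are uncertain: 75.4% and 26.2% of their stretches are shared, and their exons overlap those of Styx and Dop1a on the opposite strand, while the strand setting of the counting is not given in the sources used here. Neither Styx nor Dop1a passed the test in any of the comparisons below.

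High glucose without ox-LDL went with less Gfpt1 and more Ogt. Gfpt1, the entry enzyme, fell by 25.2% and Ogt rose by 18.9%, while Uap1, Pgm3 and Gnpnat1 did not pass the test. So 2 of the 5 genes passed at an adjusted p below 0.05 in edgeR's quasi-likelihood test, where 12.8% of all tested entries did, 5.03% higher and 7.75% lower.

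Gfpt1 was counted at 56.8, 56.5, 53.1 and 53.5 CPM in the 4 L_C libraries and at 38.9, 39.4, 42.8 and 43.2 CPM in the 4 H_C libraries, on 1275 to 2164 reads per library over the study. All H_C libraries were below all L_C libraries. The log2 fold change was -0.42 ± 0.064 (SE, edgeR adjusted p = 0.000273), with a 95% interval from -0.55 to -0.29. In RNA from a whole culture, fewer cells of a type and less RNA per cell cannot be told apart, and this holds for each difference below.

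Ogt gave 206, 201, 206 and 209 CPM in L_C and 255, 244, 235 and 244 CPM in H_C, on 6717 to 9373 reads per library over the study. The order was the opposite of that of Gfpt1, with all H_C libraries above all L_C libraries. The log2 fold change was 0.25 ± 0.041 (SE, edgeR adjusted p = 0.000589), with an interval from 0.16 to 0.34. Both calls held under all 26 alternatives, with adjusted p-values up to 0.00327 for Gfpt1 and 0.00782 for Ogt.

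Uap1, whose enzyme makes UDP-GlcNAc, gave 23.8, 25.6, 22.3 and 24.4 CPM in L_C and 21.6, 21.6, 21.1 and 21.2 CPM in H_C. The groups did not overlap and the spread in H_C was narrow (SD 0.247 CPM), but the difference of -0.17 ± 0.068 on the log2 scale did not pass (edgeR adjusted p = 0.122, interval -0.31 to -0.02). Non-overlapping groups were found for 3 of the 5 genes, Gfpt1, Uap1 and Ogt, and for 17.4% of all tested entries. Gnpnat1, at 1.75 to 2.66 CPM in L_C and 1.36 to 1.90 CPM in H_C, had the widest interval, from -0.96 to -0.01 around -0.49 ± 0.23 (edgeR adjusted p = 0.178). Its reads numbered 53 to 119 per library over the study. Pgm3, the phosphate mutase, had 7.57 to 10.5 CPM in L_C and 7.69 to 8.68 CPM in H_C, and its difference of -0.04 ± 0.14 had an interval from -0.33 to 0.25 (edgeR adjusted p = 0.897).

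Other gene groups moved in the same comparison. Of the 10 tested genes of the NFAT5 response to osmotic stress, 5 rose (6 without L_C replicate 4) and 0 fell in H_C against the mannitol group. Among those that rose were Slc6a12, a betaine transporter (log2 3.48 ± 0.26, edgeR adjusted p = 4.51e-07), and Slc5a3, a myo-inositol transporter (1.41 ± 0.16, 1.57e-05). Akr1b3 (means of 79.8 CPM in L_C and 80.5 CPM in H_C) and Hspa4l (52.2 and 51.3 CPM) were not called. Macrophage markers moved in both directions, 2 higher and 3 lower of 10. Of all tested entries 5.03% were higher and 7.75% lower. Neutrophil markers summed to 8.62 to 9.87 CPM in H_C and 10.7 to 18.9 CPM in L_C. The part of any of these in the changes of Gfpt1 and Ogt was not tested.

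**Figure D1:**
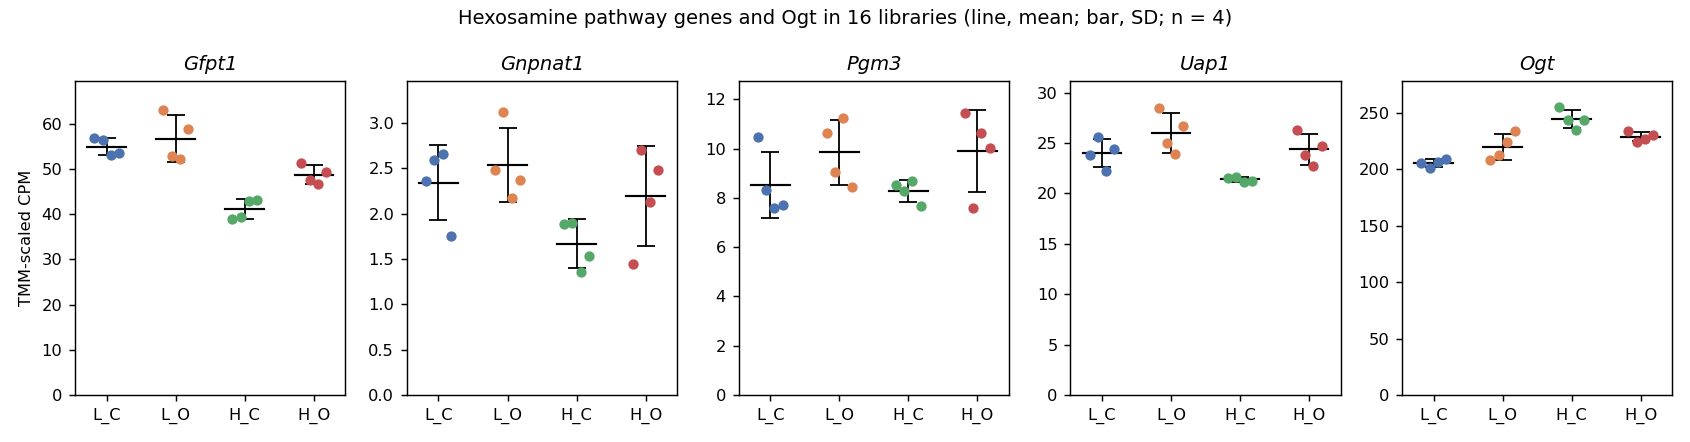
TMM-scaled CPM (vertical axes, from 0, a separate scale per gene) of the 5 genes in the 4 groups, with a point per library, the mean as a line and the SD as a bar (n = 4). The H_C points of Gfpt1 (38.9 to 43.2 CPM) lie under the points of every other group, and those of Ogt (235 to 255 CPM) lie above all L_C points.

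Added in high glucose, ox-LDL went with more Gfpt1. The 4 H_O libraries gave 51.3, 47.7, 46.7 and 49.4 CPM against the 38.9 to 43.2 CPM of H_C, a rise of 18.7%. No H_O library reached down to H_C. The log2 fold change was 0.25 ± 0.064 (SE, edgeR adjusted p = 0.00824), with an interval from 0.11 to 0.38. Gfpt1 was the 1 of the 5 genes that passed, where 21.9% of all tested entries did, 10.4% higher and 11.5% lower.

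Uap1 gave 26.3, 23.8, 22.7 and 24.7 CPM in H_O. These were all above the H_C values of 21.1 to 21.6 CPM, and the difference of 0.19 ± 0.068 was near the threshold (edgeR adjusted p = 0.0577, interval 0.04 to 0.33). It passed in 7 of the 26 alternatives, among them the fit without L_C replicate 4, a library outside the comparison. Ogt gave 234, 225, 227 and 231 CPM in H_O. Those libraries lay under all H_C libraries, with a difference of -0.09 ± 0.041 that did not pass (edgeR adjusted p = 0.122, interval -0.18 to -0.01). Separate groups were thus seen for Gfpt1, Uap1 and Ogt, 3 of 5, against 29.5% of all tested entries. Pgm3 at 7.59 to 11.5 CPM and Gnpnat1 at 1.45 to 2.71 CPM overlapped H_C, with differences of 0.26 ± 0.14 (edgeR adjusted p = 0.207) and 0.39 ± 0.23 (0.258). Markers of other cells moved beside these values. The neutrophil markers, 5 of 8 in the table, summed to 28.3 to 49.8 CPM in H_O and 8.62 to 9.87 CPM in H_C, mostly from Mmp8 (23.9 to 44.7 CPM in H_O), while S100a9 was at most 0.132 CPM in H_O and 0.234 CPM in H_C, and Cxcr2 was at most 0.136 CPM in H_O and 0.467 to 0.884 CPM in H_C. The eosinophil markers, 3 of 5 in the table, summed to 4.70 to 5.76 CPM in H_O and 19.6 to 23.6 CPM in H_C, nearly all from Siglecf, with Ccr3 and Il5ra at most 0.175 CPM in these groups. Their part in the difference of Gfpt1 was not tested.

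Added in low glucose, ox-LDL gave no call among the 5 genes. The count was 0 of 5 with edgeR, DESeq2 and limma-voom and 1 of 5 with limma-voom under quality weights, where 25.8% of all tested entries passed with edgeR, 12% higher and 13.8% lower. Only Ogt had an unadjusted p below 0.05 in edgeR's test. Ogt gave 208, 212, 224 and 234 CPM in L_O against 201 to 209 CPM in L_C. The lowest L_O library lay among the L_C libraries, and the difference was 0.10 ± 0.041 (edgeR adjusted p = 0.101, interval 0.01 to 0.18). Gfpt1 gave 63.1, 52.8, 52.1 and 58.9 CPM in L_O. These values lay on both sides of L_C, with a difference of 0.04 ± 0.063 (edgeR adjusted p = 0.659, interval -0.09 to 0.18).

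Uap1 at 23.9 to 28.5 CPM, Pgm3 at 8.44 to 11.3 CPM and Gnpnat1 at 2.17 to 3.12 CPM in L_O also overlapped L_C. Their differences were 0.11 ± 0.068, 0.21 ± 0.14 and 0.12 ± 0.22, with intervals of -0.03 to 0.26, -0.08 to 0.50 and -0.35 to 0.59. Overlap with L_C was thus found for 5 of the 5, while 26.1% of all tested entries had separate groups. Since the label of L_O names no mannitol, ox-LDL and a difference in mannitol cannot be told apart here. The same limit holds for glucose in H_O minus L_O and for the interaction, which both use L_O. In H_C minus L_C and H_O minus L_C, mannitol is named for L_C only, as its osmotic control. There the added glucose and the absence of mannitol go together and cannot be told apart.

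High glucose in the presence of ox-LDL left Gfpt1 near the threshold. Its H_O values of 46.7 to 51.3 CPM were below all L_O values of 52.1 to 63.1 CPM, and the difference of -0.22 ± 0.063 passed narrowly (edgeR adjusted p = 0.0494, interval -0.35 to -0.08). It was the 1 of 5 genes that passed, where 6.11% of all tested entries did, 2.71% higher and 3.39% lower, and the 1 of 5 with separate groups, against 17.7%. The call was lost in 18 of the 26 alternatives, with adjusted p-values from 0.0203 to 0.18: it held only without L_C replicate 4, L_O replicate 2 or L_O replicate 3 among the 16 fits that left out a library. Ogt, at 225 to 234 CPM in H_O and 208 to 234 CPM in L_O, differed by 0.06 ± 0.041 (edgeR adjusted p = 0.471, interval -0.03 to 0.15). Uap1 differed by -0.09 ± 0.068, Pgm3 by 0.01 ± 0.14 and Gnpnat1 by -0.21 ± 0.22, with adjusted p-values of 0.498, 0.98 and 0.686 in edgeR's test.

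With both additions against neither, Ogt was higher and Gfpt1 lower, 2 of 5 genes where 30.5% of all tested entries passed, 14.5% higher and 16.1% lower. Ogt differed by 0.16 ± 0.041 (edgeR adjusted p = 0.00759, interval 0.07 to 0.24), held under all 26 alternatives, and its lowest H_O library (225 CPM) lay above its highest L_C library (209 CPM). Gfpt1 differed by -0.17 ± 0.063 (edgeR adjusted p = 0.0463, interval -0.31 to -0.04), a call lost in 15 of the 26 alternatives, 11 of which left out a single library (L_C replicates 1, 2 or 3, L_O replicate 4, any H_C replicate, or H_O replicates 2, 3 or 4). Its groups, like those of Ogt, did not overlap, as was the case for 29.1% of all tested entries. Uap1, Pgm3 and Gnpnat1 differed by 0.02 ± 0.068, 0.22 ± 0.14 and -0.09 ± 0.22 and did not pass. In H_O and L_C the neutrophil markers summed to 28.3 to 49.8 and 10.7 to 18.9 CPM. Within these sums Mmp8 was at 23.9 to 44.7 and 4.34 to 12.8 CPM, while Cxcr2 was at most 0.136 CPM in H_O and 1.44 to 2.55 CPM in L_C. The eosinophil markers, 1 of which passed the filter on low counts, summed to 4.70 to 5.76 and 14.2 to 20.7 CPM. The T and NK cell markers, 7 of 8 in the table, summed to 4.58 to 6.78 and 7.72 to 12.2 CPM. The part of these markers in the differences was not tested.

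**Figure D2:**
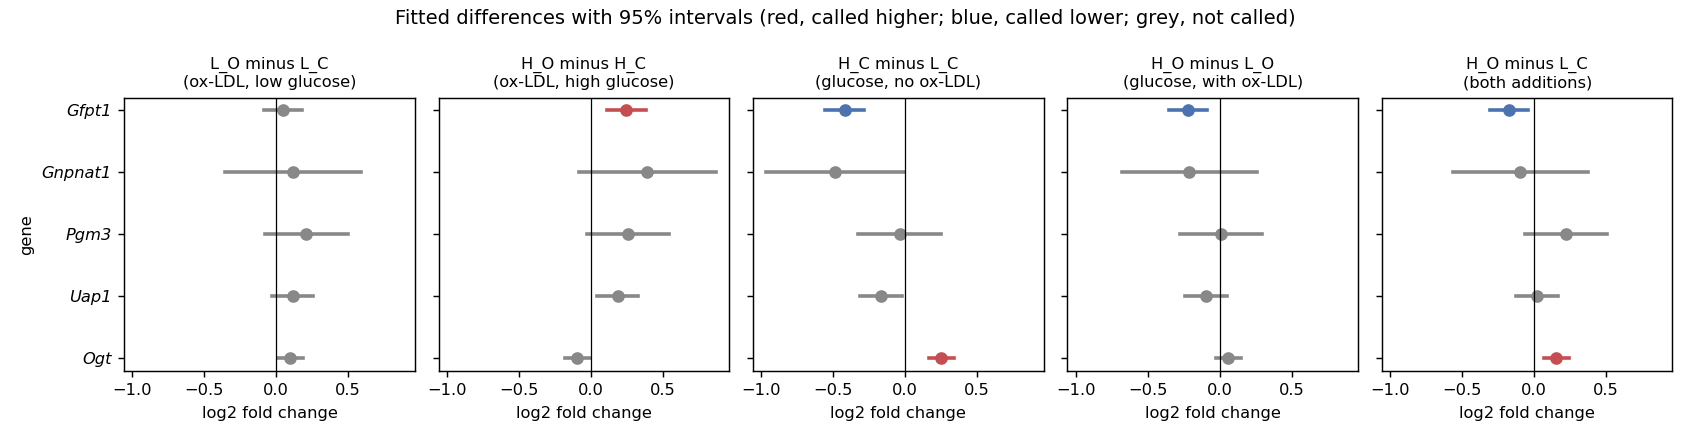
Fitted log2 fold changes (horizontal axis) of the 5 genes in 5 comparisons, with bars for the 95% intervals, red for called higher, blue for called lower and grey for not called at an edgeR adjusted p of 0.05. The comparisons share groups and are not independent; Gfpt1 is at -0.42 and Ogt at 0.25 in H_C minus L_C, and Gnpnat1 has the widest bars.

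Whether the response to ox-LDL differed between the glucose levels was tested as an interaction. For Gfpt1 the ox-LDL difference was 0.04 in low and 0.25 in high glucose, so that it was larger by 0.20 ± 0.090 in high glucose (edgeR adjusted p = 0.542). For Ogt it was 0.10 in low and -0.09 in high glucose, a change of -0.19 ± 0.058 (edgeR adjusted p = 0.297). None of the 5 genes passed with edgeR, DESeq2 or limma-voom, with or without quality weights, and 2 of them, Gfpt1 and Ogt, had an unadjusted p below 0.05 in edgeR's test. Of all tested entries 0.0148% passed with edgeR, 0.00739% in each direction. The interactions of Uap1, Pgm3 and Gnpnat1 were 0.07 ± 0.096, 0.05 ± 0.19 and 0.28 ± 0.32. Thus the data did not establish a difference between glucose levels for any of the 5, whatever passed in a single glucose level.

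Ratios within a library do not depend on how the libraries were scaled. The ratio of Ogt to Gfpt1 counts was 3.62, 3.56, 3.89 and 3.91 in L_C, 3.30, 4.02, 4.30 and 3.98 in L_O, 6.56, 6.18, 5.49 and 5.65 in H_C, and 4.56, 4.71, 4.86 and 4.67 in H_O. The H_C libraries stood above all others, the H_O libraries came next without overlap, and the low-glucose groups overlapped each other. All libraries of H_C were already higher for Ogt and lower for Gfpt1 than those of L_C. The same held for H_O against L_C, and the reverse for H_O against H_C. The ratio of this pair was therefore bound to separate these groups and is a description only. The share of other gene pairs with separate groups was not computed. As means the ratios were 3.74 ± 0.177 in L_C, 3.90 ± 0.425 in L_O, 5.97 ± 0.493 in H_C and 4.70 ± 0.123 in H_O (SD, n = 4).

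Mgea5, the gene of the hydrolase that removes O-GlcNAc, did not follow Ogt. Its group means were 107 CPM in L_C, 113 in L_O, 103 in H_C and 107 in H_O, and it passed the test in none of the comparisons, with a difference of -0.05 ± 0.052 in H_C minus L_C (edgeR adjusted p = 0.604, interval -0.16 to 0.06). The ratio of Ogt to Mgea5 counts was 1.86, 1.76, 1.93 and 2.17 in L_C and 2.47, 2.29, 2.32 and 2.38 in H_C. All H_C libraries were above all L_C libraries, L_C replicate 4 being the closest. In L_O the ratio was 1.94 ± 0.114 and in H_O 2.14 ± 0.12 (SD, n = 4), with the H_O libraries, at 2.28, 2.02, 2.19 and 2.07, overlapping those of L_O at 1.80, 1.98, 1.92 and 2.07. Of the 50-base stretches of Mgea5 transcripts, 7.47% occur elsewhere, so a small part of its counts may belong to other genes.

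**Figure D3:**
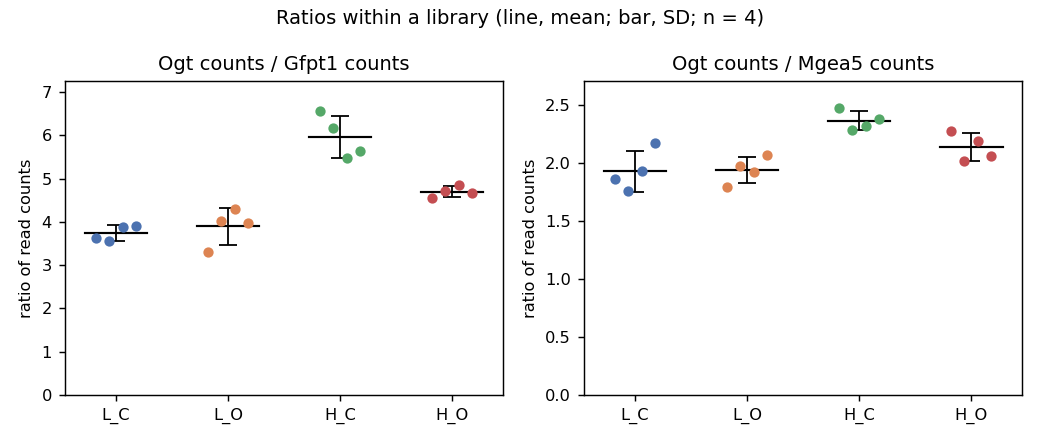
Ratio of read counts within each library (vertical axes, from 0), Ogt over Gfpt1 on the left and Ogt over Mgea5 on the right, with a point per library, the mean as a line and the SD as a bar (n = 4). On the left the H_C libraries (5.49 to 6.56) and H_O libraries (4.56 to 4.86) form separate groups above the low-glucose libraries. On the right H_C (2.285 to 2.474) lies above the other groups, but nearly touches H_O (2.017 to 2.282).

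The genes around the pathway were read from lists chosen with earlier results of these data known, so their counts describe and do not test. Salvage enzymes, isoenzymes and sugar transporters (12 tested) gave 0 calls in H_C minus L_C with edgeR, DESeq2 and limma-voom, 2 with quality weights and 0 at an unadjusted p below 0.05, but 2 lower without L_C replicate 4, with a median log2 fold change of -0.08 against 0.00 for all tested entries. With edgeR 12.8% of all tested entries were called there. With ox-LDL 3 rose and 2 fell in low glucose (3 and 1 without that library), and 2 rose and 1 fell in high glucose (3 and 1), where 25.8% and 21.9% of all tested entries were called. Amdhd2, which deacetylates GlcNAc 6-phosphate, fell by 0.19 ± 0.050 on the log2 scale in low glucose (edgeR adjusted p = 0.00974) and by 0.27 ± 0.050 in high glucose (0.000668). Without scaling, the call in low glucose was lost. Gnpda1, which returns glucosamine 6-phosphate to glycolysis, rose by 0.23 ± 0.035 (7.44e-05) and 0.16 ± 0.035 (0.00272). Also called in low glucose were Renbp, which rose (0.24 ± 0.083, edgeR adjusted p = 0.0377) and was lost in 5 of the 26 alternatives, and Gfpt2, which fell (-1.22 ± 0.43, 0.0443) and was lost in 13 of the 26 alternatives, the fit without L_C replicate 4 among them.

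In H_C replicate 3 Gfpt2 reached 4.35 CPM against 1.01, 1.14 and 1.54 in the other H_C libraries. In that library the 8 mesothelial and fibroblast markers summed to 180 CPM, against 39.0 to 46.8 CPM in the other H_C libraries, 58.9 to 77.5 in L_C, 22.8 to 36.1 in L_O and 36.1 to 87.3 in H_O. L_C replicate 4 had the highest value of its group for both, 4.09 CPM of Gfpt2 and a sum of 77.5 CPM. In the ox-LDL groups they did not run together: L_O replicate 1 had the highest Gfpt2 of its group (1.45 CPM) with the lowest sum, and H_O replicate 2 had the lowest Gfpt2 (1.21 CPM) with the highest sum. The part of these markers in the level of Gfpt2 was not tested. Gfpt1 in the same library, at 42.8 CPM, lay within the range of the other H_C libraries, and its difference from L_C held without that library.

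On the supply side, glucose transporters, hexokinases and the other genes of glucose entry (11 tested) gave 0 calls in H_C minus L_C with edgeR, with 1 at an unadjusted p below 0.05, 1 call each by DESeq2 and limma-voom, 2 with quality weights and 2 lower without L_C replicate 4. Of all tested entries 5.03% rose and 7.75% fell in H_C minus L_C with edgeR. With ox-LDL in high glucose 1 rose, Hk1 (0.27 ± 0.040, edgeR adjusted p = 5.18e-05), and 2 fell, Hk3 (-0.51 ± 0.078, 7.01e-05) and the transporter gene Slc2a6 (-0.54 ± 0.082, 7.4e-05), and without L_C replicate 4 the counts were 1 and 3. The shares of all tested entries were 10.4% higher and 11.5% lower. In low glucose ox-LDL gave 0 higher and 2 lower calls (1 and 2 without L_C replicate 4), against 12% and 13.8%. The 2 were again Hk3 (-0.50, edgeR adjusted p = 7.96e-05) and Slc2a6 (-0.78, 1.12e-06). Of the 13 genes for glutamine, acetyl-CoA and UTP, 2 rose in H_C: Slc38a2, a glutamine transporter and also a known NFAT5 target (0.80 ± 0.048, edgeR adjusted p = 4.08e-08), and Uck1, a uridine kinase (0.34 ± 0.080, 0.00828). With ox-LDL 5 rose and 1 fell in low glucose (6 and 2 without L_C replicate 4), and 6 rose and 1 fell in high glucose, against 12% and 13.8%, and 10.4% and 11.5%, of all tested entries. Glul, the glutamine synthetase, rose by 0.65 ± 0.048 in high glucose (edgeR adjusted p = 1.16e-08), and Acss2, which makes acetyl-CoA from acetate, fell by 1.06 ± 0.14 (1.29e-05). Both were also called in low glucose, Glul at 0.70 (edgeR adjusted p = 3.96e-09) and Acss2 at -1.20 (2.47e-06).

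In H_C minus L_C, 5.03% of all tested entries rose and 7.75% fell, and the H_C counts of this paragraph stand beside these shares. Of the genes whose enzymes use UDP-GlcNAc for N-glycan branches (9 tested), 1 rose and 1 fell in H_C minus L_C. These were Mgat5 (0.21 ± 0.040, edgeR adjusted p = 0.00145) and Mgat4a (-0.35 ± 0.060, 0.000869). The list of OGT partners and substrates (12 tested) gave 1 call in H_C, Nup62, a nuclear pore protein rich in O-GlcNAc, which was lower (-0.27 ± 0.059, 0.00554), and without L_C replicate 4 it gave 3 higher and 1 lower. With ox-LDL in high glucose 1 was higher, Nup62 (0.51 ± 0.059, 2.99e-06), and 1 lower, Sp1 (-0.21, edgeR adjusted p = 0.000574). Without L_C replicate 4 these counts were 1 and 5, and of all tested entries 10.4% were higher and 11.5% lower. Nup62 was also higher with ox-LDL in low glucose (0.35, edgeR adjusted p = 0.000215). The genes for sialic acid and hyaluronan (6 tested) gave 1 call in H_C, Cmas (0.25 ± 0.081, 0.0483), which was lost in 15 of the 26 alternatives.

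Stress response genes were read in the same way. Of 18 genes of the XBP1 and ATF6 arms of the unfolded protein response, 8 fell and 0 rose in H_C minus L_C, with a median of -0.16, where 7.75% of all tested entries were lower and 5.03% higher. Over the alternatives there were between 5 and 10 lower calls, and 9 without L_C replicate 4. Hsp90b1 (-0.33 ± 0.044, edgeR adjusted p = 0.000106), Calr (-0.35 ± 0.050, 0.000134) and Manf (-0.42 ± 0.076, 0.00119), all proteins of the endoplasmic reticulum, were among them. With ox-LDL in high glucose 9 rose and 2 fell (11 and 3 without L_C replicate 4), with a median of 0.14, against 10.4% and 11.5% of all tested entries. Hyou1, a chaperone, was among those that rose (0.41 ± 0.041, 5.78e-07), and it also rose in low glucose (0.37, edgeR adjusted p = 1.69e-06). The 2 that fell were Atf6 (-0.27, edgeR adjusted p = 0.00143) and Ern1 (-0.18, 0.00632). In low glucose ox-LDL gave 4 higher and 3 lower calls (4 and 4 without L_C replicate 4), with a median of 0.02, against 12% and 13.8%. Atf6 (-0.25, edgeR adjusted p = 0.00235) and Ern1 (-0.15, 0.0143) were again among the lower. In the interaction 0 of the 18 genes were called, where 0.0148% of all tested entries passed, and 6 had an unadjusted p below 0.05 in edgeR's test. A difference between the glucose levels was thus not established for this list. Xbp1 itself was at -0.02 ± 0.045 in H_C minus L_C (edgeR adjusted p = 0.79), where Gfpt1 fell. Xbp1 was higher in L_O minus L_C (0.15 ± 0.045, 0.016), where Gfpt1 was not called. In H_O minus L_O it was higher (0.18 ± 0.045, 0.0187) and Gfpt1 lower, and in H_O minus H_C it rose with Gfpt1 (0.36 ± 0.045, 7.85e-06). The comparisons share libraries, so their values stand side by side and are not separate evidence. Counts per gene measure Xbp1 RNA as a whole and not the level or activity of the XBP1 protein. The part of Xbp1 or of the listed genes in the level of Gfpt1 was not tested.

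Of 14 genes of the ATF4 amino acid response, 2 rose and 7 fell in H_C minus L_C, with a median of -0.28, against 5.03% and 7.75% of all tested entries. Psat1 of serine synthesis (-0.65 ± 0.13, edgeR adjusted p = 0.00217) and Asns, the asparagine synthetase (-0.47 ± 0.096, 0.00327), were lower. With ox-LDL, 9 rose and 2 fell in low glucose and 8 rose and 2 fell in high glucose, with medians of 0.34 and 0.37. Without L_C replicate 4 these were 8 and 3, and 10 and 2, and of all tested entries 12% rose and 13.8% fell in low glucose and 10.4% and 11.5% in high glucose. Asns rose by 1.11 ± 0.096 in high glucose (7.93e-08). Beside these medians of -0.28, 0.34 and 0.37, Gfpt1 was at -0.42 in H_C minus L_C, 0.04 in L_O minus L_C and 0.25 in H_O minus H_C, and in H_O minus L_C it was at -0.17 with a median of -0.02. The part of these genes in the level of Gfpt1 was not tested.

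**Figure D4:**
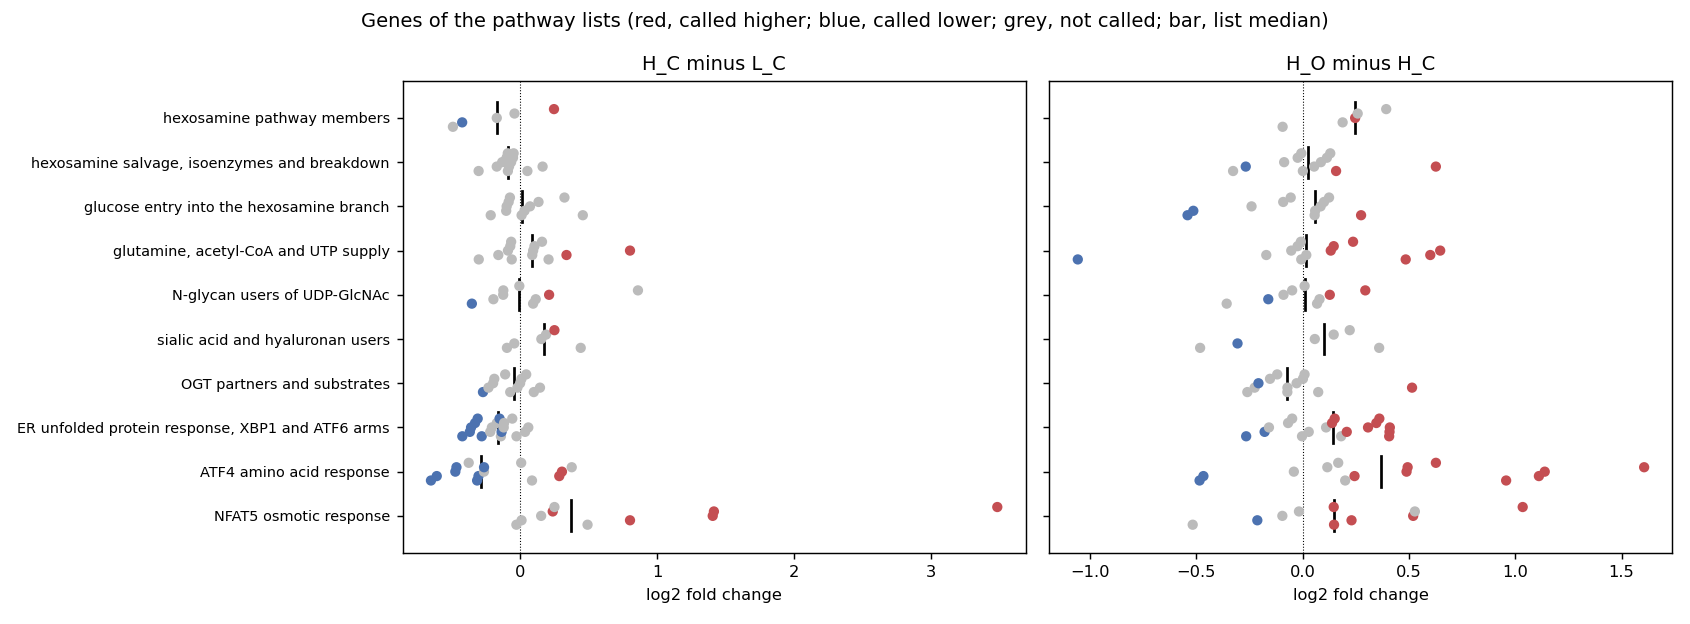
Log2 fold changes (horizontal axis) of the genes of 10 lists in H_C minus L_C and H_O minus H_C, with a point per gene, red for called higher, blue for called lower, grey for not called, and a bar at the list's median. The unfolded protein response list has 8 lower calls on the left and 9 higher and 2 lower on the right. The NFAT5 list reaches 3.48 on the left.

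Over the 16 libraries, log2 CPM of Gfpt1 and Uap1 had a Pearson r of 0.84 and those of Gfpt1 and Ogt of -0.79, given as a description because the libraries share groups and depth. Gnpnat1 and Pgm3 had an r of 0.51 and 0.29 with Gfpt1. Of 8505 genes with a mean log2 CPM of at least 3, the 3 most like Gfpt1 were Etf1, a translation termination factor (r = 0.934), Plxnc1, a semaphorin receptor (0.926), and Spcs3, a subunit of the signal peptidase (0.907). The 3 most like Ogt were Srek1, a splicing regulator (0.934), Zfp871 (0.903) and Rabep1, an endosomal protein (0.890). For Uap1 they were Ywhaq (0.861), Txnl1 (0.847) and Copg1 (0.846). Pgm3 and Gnpnat1 had no gene as close, with highest values of 0.797 (Lsg1) and 0.826 (Tcea1).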

How the data were processed

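The data are 16 RNA-seq libraries of peritoneal macrophages, and the labels set 4 of them in each group. The authors deposited a table of read counts per gene, whole numbers without normalization. HISAT2, DESeq2 and the build mm10 are named without versions or roles, per the submitters' processing notes. The counting tool, annotation and strand setting are not given in the sources used here.

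Testing used edgeR 4.0.16 (R 4.3.3; quasi-likelihood F test, two-sided, TMM, filterByExpr by group). A mean per group was fitted over all 16 libraries, and p-values were adjusted by Benjamini-Hochberg over 13527 entries with a threshold of 0.05, and 2344 entries were not tested. CPM are TMM-scaled, with a prior count of 2 on the log2 scale. The test was checked on simulated counts. Library totals of 32596640 to 41712885 set the counting error. Alternatives were other scalings and filters, DESeq2 1.42.0, limma-voom (limma 3.58.1), a replicate block, only the libraries compared, and leaving out each library.

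The 5 genes, the lists and the tests were chosen with earlier results of these data known. Genes named from a list were among the up to 4 smallest adjusted p-values of that list in a comparison, or are called genes named to account for a count, and the most alike genes are the 3 with the highest Pearson r per gene. Listed genes with no entry in the table were not analysed here, and the result of 1 listed gene is not reported here. Other genes counted in a list are named only in part. Marker lists covered macrophages, B, T and NK cells, neutrophils, mast cells (at most 0.493 CPM summed), eosinophils, dendritic cells, mesothelial cells and fibroblasts, and erythroid cells and platelets (at most 7.81 CPM).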

Additional observations from a re-analysis of the deposited data

Results flagged for a closer look

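In 17 genes of the pathway and its salvage list, the 68 groups of 4 libraries were searched for a library far from the other 3, which chance gives in about 1 group in 20, and 5 were found, none of them in the 5 pathway genes. Gfpt2 reached 4.35 CPM in H_C replicate 3 against 1.01 to 1.54 CPM in the other H_C libraries. Uap1l1 had 175 CPM in L_C replicate 4 against 282 to 304 CPM in the other L_C libraries. Renbp had 168 CPM in L_O replicate 4 against 181 to 183 CPM in the other L_O libraries. Slc35a3, a UDP-GlcNAc transporter gene, had 86.9 CPM in L_O replicate 2, and Slc35d2, another nucleotide sugar transporter gene, had 10.6 CPM in H_O replicate 4, each apart from the rest of its group.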

How the results depend on the processing

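In H_C minus L_C, Gfpt1 (log2 -0.44 to -0.38) and Ogt (0.23 to 0.28) kept direction and call in all 26 alternatives, as did Gfpt1 in H_O minus H_C (0.22 to 0.31) and Ogt in H_O minus L_C (0.15 to 0.26). The number of pathway genes called moved in other cases, and the cause was not tested. For ox-LDL in low glucose it was 0, and became 1 with upper-quartile size factors, 2 without scaling and 1 with voom quality weights. For ox-LDL in high glucose it was 1, and became 2 with upper-quartile factors, without scaling, with quality weights and with the replicate block, 3 with only the libraries compared, and 1 to 2 when a library was left out. For high glucose with ox-LDL it was 1, and became 0 with RLE factors, upper-quartile factors, no scaling, no filter and the replicate block, and 0 to 1 when a library was left out. For both additions it was 2, and became 1 with upper-quartile factors, no scaling, no filter and only the libraries compared, and 1 to 2 when a library was left out.

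Over all genes, the 1729 calls of H_C minus L_C became 914 with only the libraries compared and stayed within 1252 to 2187 when a library was left out. The 826 of H_O minus L_O became 1846 with quality weights, 1619 with only the libraries compared, and 526 (without L_O replicate 1) to 1763 (without L_C replicate 4) when a library was left out. The 2 of the interaction became 95 with DESeq2, 0 with limma-voom, 75 with quality weights, 0 with the replicate block, and 0 to 53 (without L_C replicate 4) when a library was left out. Without scaling, the higher and lower calls went from 1622 and 1867 to 2857 and 1392 in L_O minus L_C, from 1406 and 1556 to 2174 and 1166 in H_O minus H_C, from 680 and 1049 to 927 and 841 in H_C minus L_C, and from 1955 and 2174 to 3389 and 1555 in H_O minus L_C, where the median of all genes moved to 0.11.

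Reversals of sign were all in differences that passed in none of the fits concerned. With quality weights Gnpnat1 went to -0.0153 in L_O minus L_C, and without scaling it went to 0.00297 in H_O minus L_C. When a library was left out, the differences that crossed 0 were those in L_O minus L_C of Gnpnat1 (-0.00172 to 0.183) and Gfpt1 (-0.00946 to 0.0837), in H_C minus L_C of Pgm3 (-0.0903 to 0.0748), in H_O minus L_O of Pgm3 (-0.0652 to 0.12), in H_O minus L_C of Gnpnat1 (-0.212 to 0.0604) and Uap1 (-0.0168 to 0.0536), and in the interaction of Pgm3 (-0.064 to 0.158). Same-numbered libraries did not deviate together (correlations from -0.164 to 0.0666, 0 of 24 over 0.1). The numbers thus gave no sign of a pairing, but this check cannot exclude that equal numbers share an origin. With 53 to 119 reads per library, depth limits Gnpnat1 most.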
